A study of Mus musculus
Mus spretus with 18 samples.

Results

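Members of the Bcl2 family decide whether the outer membrane of the mitochondrion stays intact, and thereby whether a cell enters the mitochondrial route of apoptosis. The pro-survival proteins Mcl1, Bcl2l1 (the gene of Bcl-xL) and Bcl2l2 (Bcl-w) hold back the pore-forming effectors Bax and Bak1. The BH3-only proteins Bcl2l11 (Bim), Bid, Bad, Bbc3 (Puma) and Pmaip1 (Noxa) bind the pro-survival members or the effectors and favour death. Several of these genes are known for isoforms made by alternative splicing, and pladienolide B, which binds the SF3B1 subunit of the U2 snRNP and disturbs recognition of the branch point, acts on splicing directly. The 10 genes were taken by symbol out of 38924 genes with an expression value, and all 10 were measured in every library.

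RNA-seq libraries came from F1 hybrids of a C57BL/6J mother and a SPRET/EiJ father, so each cell carried both alleles. Fibroblasts derived from the hybrids were exposed for 4 h to 0.1 μM pladienolide B or to DMSO (for which the labels also write 0.1 microM), with 2 libraries each, and nothing in the sources used here says whether these were separate cultures. Cerebral cortex, heart, kidney, lung, spleen and liver of female hybrids aged 8 weeks and embryonic stem cells (ESC) gave 2 libraries each, 14 in all, where the ESC libraries are independent clones and the liver data came from an earlier data set. The organs, liver included, were taken from the same 2 animals, and tests across tissues treat them as separate, since no source used here says which library came from which animal. The fibroblasts were 1 line. The labels of the liver libraries name the strains as C57BL/7J x SPRET/EiJ and C57BL/8J x SPRET/EiJ. P-values therefore measure the spread between these libraries, which in the fibroblasts may be technical. Bulk RNA was measured, so fewer cells of a type and less RNA per cell cannot be told apart.

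The tables of skipped exon (SE) events summed to between 129067054 and 151755602 junction reads per library in fibroblasts and to between 46558287 and 129496306 in tissues, where a read is counted again for each event that it supports. All 3 defining markers of each of the 7 tissues were higher in both of its own libraries than in any other tissue library. In the DMSO fibroblasts 4 of 6 fibroblast markers were above every tissue library, and the 6 summed to between 6837 and 7185 TPM (transcripts per 1000000) over the 4 fibroblast libraries, most of it Vim. Of these markers Pdgfrb stood at 227.4 and 207.5 TPM after DMSO and at 44.5 and 43.6 TPM after the drug. Thy1 was low, at 5.51 and 5.73 TPM after DMSO. Among markers of other cell types, the epithelial marker Cdh1 was present at 7.48 to 8.81 TPM, while Epcam, Krt8 and Krt18 were at most 0.0681 TPM. The 2 leukocyte markers were at or near 0, and the 2 endothelial markers summed to at most 0.0544 TPM.

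Under pladienolide B the RNA of 4 members fell several-fold. Bcl2l2, Bcl2l11, Bid and Bak1 were 4.11 to 8.86 times lower in TPM, whereas Bax rose, and these 5 kept their direction on both scales on which the libraries can be compared. TPM sums to 1000000 in every library, and the median log2 ratio of the 13221 genes tested was -1.13, that is, the median gene was 2.19-fold lower after the drug. The 2094 genes called higher took 45.7% of all TPM after DMSO and 69.3% after pladienolide B. Each member is therefore given in 2 ways, as deposited and after centring on the median log2 level of each library, which moved every ratio up by 1.43. Differences were tested with limma on log2(TPM + 0.1), with Benjamini-Hochberg adjustment across the genes with a mean of 1 TPM or more.

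On the deposited scale 8 of the 10 members were called at an adjusted p below 0.05, 7 of them lower and 1 higher. This is near the background, since 88.9% of all genes tested were called, 73.1% lower and 15.8% higher. After centring all 10 were called, 4 lower and 6 higher, against 36.6% lower and 51.5% higher among all genes. The median log2 ratio of the 10 members was -0.80 as deposited and 0.62 after centring, beside -1.13 and 0.29 for all genes tested.

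**Figure D1:**
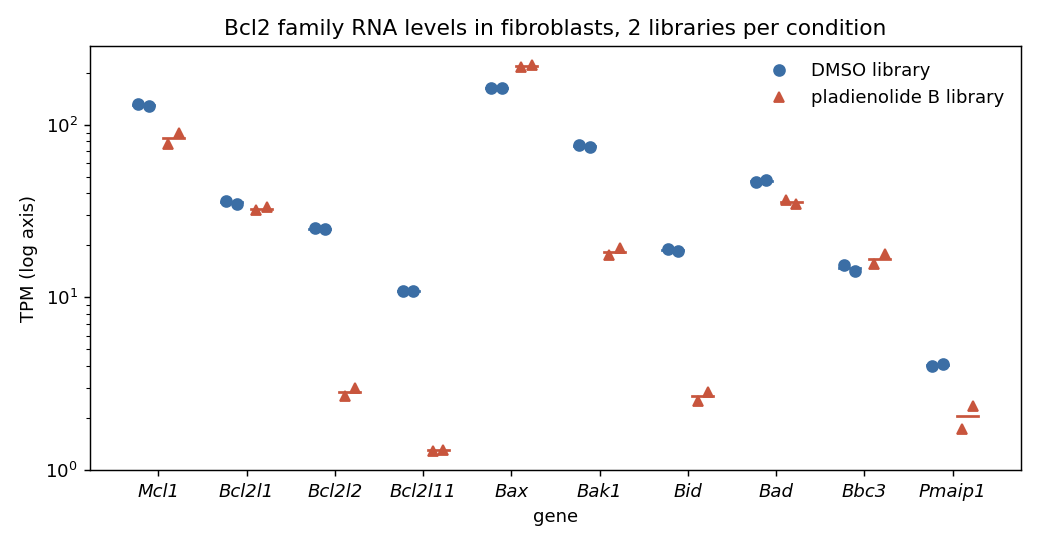
RNA levels of the 10 genes in fibroblasts, in TPM on a log axis, with circles for the 2 DMSO libraries, triangles for the 2 pladienolide B libraries and bars for the means. Bcl2l2, Bcl2l11, Bid and Bak1 lie several-fold lower after the drug and Bax higher, whereas the smaller drops of Mcl1, Bad and Pmaip1 turn into rises when libraries are centred on their median gene.

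Of the pro-survival genes, Bcl2l2 stood at 25.1 and 24.8 TPM after DMSO and at 2.67 and 2.97 TPM after pladienolide B. The groups were far apart, with a log2 ratio of -3.10 ± 0.07 (SE, n = 2 libraries per group), limma adjusted p = 3.55e-06. After centring the ratio was -1.68 ± 0.065 (SE), limma adjusted p = 6.71e-06. As deposited, only 7.69% of all genes tested had a lower ratio. Mcl1, a short-lived protein that cells need to make without pause, was measured at 131.6 and 128.0 TPM after DMSO and at 77.8 and 89.3 TPM after the drug. Its groups did not overlap and its log2 ratio was -0.64 ± 0.07 (SE) as deposited, limma adjusted p = 0.000687, but 0.79 ± 0.07 after centring, limma adjusted p = 0.000103, so its direction depends on the scale. Bcl2l1 was measured at 36.2 and 34.9 TPM after DMSO and at 32.0 and 33.4 TPM after pladienolide B. Its log2 ratio of -0.12 (95% interval -0.25 to 0.005) did not pass the test, limma adjusted p = 0.0626, and was 1.31 ± 0.05 (SE) after centring, limma adjusted p = 6.45e-06.

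The effectors parted. Bax rose from 163.1 and 162.4 TPM to 214.9 and 221.3 TPM, a log2 ratio of 0.42 ± 0.04 (SE), limma adjusted p = 0.000173, and 1.85 after centring. Bak1 fell from 76.6 and 74.6 TPM to 17.5 and 19.2 TPM, a log2 ratio of -2.04 ± 0.06 (SE), limma adjusted p = 5.15e-06, and -0.61 after centring. Of all genes tested, 28.1% had a lower ratio than Bak1. Within a library, where the scale drops out, Bax stood at 2.13 and 2.18 times the TPM of Bak1 after DMSO and at 12.3 and 11.5 times after the drug. This ratio rose 5.52-fold, a log2 difference of 2.46 against standard deviations of 0.02 and 0.07 within the groups. It ranged from 2.33 to 8.28 over the 14 tissue libraries, so both drug-treated libraries lay above every tissue. The ratio was chosen after the values were seen, and it sets a gene that rose against one that fell several-fold. The summed TPM of both effectors overlapped between the groups, with 239.7 and 237.0 after DMSO and 232.5 and 240.6 after pladienolide B.

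Among the BH3-only genes Bcl2l11 fell from 10.9 TPM in each DMSO library to 1.29 and 1.31 TPM, a log2 ratio of -2.98 ± 0.08 (SE), limma adjusted p = 3.85e-06. Bid, whose protein is cut by caspase 8 and links death receptors to the mitochondrion, fell from 19.0 and 18.6 TPM to 2.51 and 2.83 TPM, a log2 ratio of -2.77 ± 0.08 (SE), limma adjusted p = 5.10e-06. For both genes the drug-treated libraries lay far below the controls, and the ratios stayed negative after centring, at -1.55 and -1.35. Bad, which is held inactive by phosphorylation, was measured at 46.8 and 47.6 TPM after DMSO and at 36.9 and 34.9 TPM after the drug. Its log2 ratio was -0.39 ± 0.05 (SE), limma adjusted p = 0.000785, but 1.03 after centring.

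The remaining pair, Pmaip1 and Bbc3, are targets of p53. Pmaip1 was the lowest member in the DMSO libraries, at 4.01 and 4.09 TPM, and stood at 1.73 and 2.36 TPM after pladienolide B. Its log2 ratio was -0.97 ± 0.16 (SE), limma adjusted p = 0.00312, near that of the median gene, and 0.46 after centring, limma adjusted p = 0.0279. Bbc3 was measured at 15.4 and 14.1 TPM after DMSO and at 15.6 and 17.9 TPM after the drug, so that the lower drug-treated library lay just above the higher control. Its log2 ratio of 0.18 (95% interval -0.06 to 0.41) did not pass the test, limma adjusted p = 0.123, and was 1.60 after centring. Both tests that missed the threshold turn on single libraries: without the first pladienolide B library Bbc3 was called higher (adjusted p = 0.0322), and without the second Bcl2l1 was called lower (adjusted p = 0.0415).

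**Figure D2:**
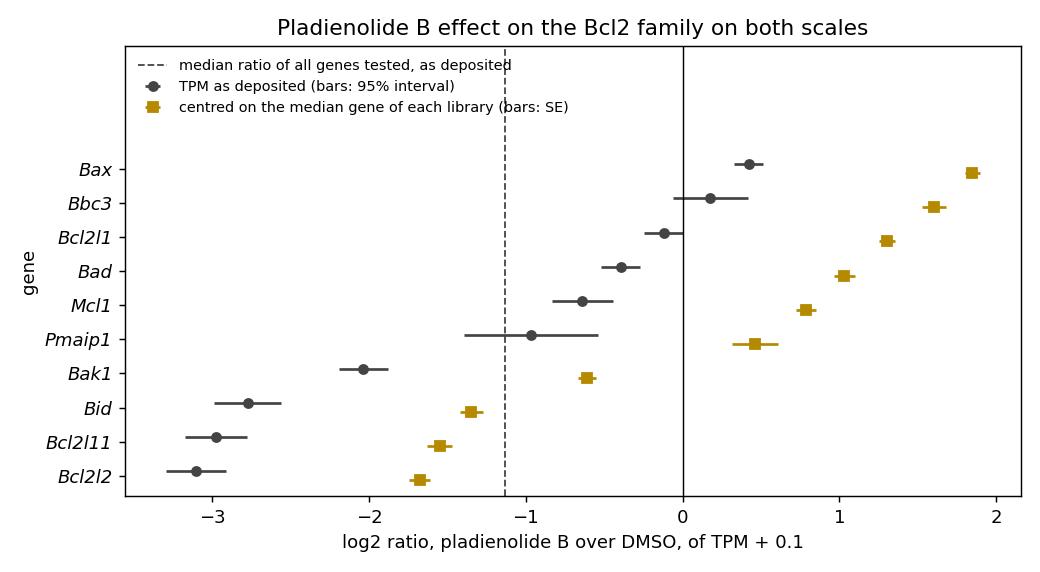
Log2 ratio of pladienolide B over DMSO for each gene, as deposited (circles, bars for the 95% interval) and after centring each library on its median gene (squares, bars for the SE), with a dashed line at the median of all genes tested, -1.13. Bcl2l2, Bcl2l11, Bid and Bak1 lie left of 0 and Bax right of 0 on both scales, while Mcl1, Bad, Pmaip1 and Bcl2l1 change sides.

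Ratios between members within a library moved in different ways. Summed by role, the pro-survival genes stood at 192.9 and 187.8 TPM after DMSO and at 112.5 and 125.6 TPM after the drug. The BH3-only genes stood at 96.1 and 95.3 TPM after DMSO and at 57.9 and 59.3 TPM after the drug. Both sums were lower on the deposited scale, on which the median gene was 2.19-fold lower, and they were not centred. They fell to a similar degree, and the ratio of the pro-survival to the BH3-only sum overlapped between the groups. The ratios that follow were chosen after the values were seen, and each sets a gene against one that fell several-fold. Mcl1 stood at 5.24 and 5.16 times the TPM of Bcl2l2 after DMSO and at 29.1 and 30.1 times after pladienolide B. Relative to Bcl2l11, whose protein it binds, Mcl1 went from 12.1 and 11.7 times to 60.4 and 68.2 times. Bcl2l1 went from 3.32 and 3.20 times the TPM of Bcl2l11 to 24.9 and 25.5 times. In all 3 ratios the groups did not overlap, and the rises were 5.69-fold, 5.39-fold and 7.73-fold. Against Bbc3, in contrast, Mcl1 had 131.6 TPM beside 15.4 and 128.0 beside 14.1 after DMSO, and 77.8 beside 15.6 and 89.3 beside 17.9 after the drug, which is a lower ratio in both drug-treated libraries.

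Other genes of the apoptotic machinery were counted in the same way. Of 38 listed genes (other Bcl2 relatives, mitochondrial and apoptosome factors, caspases and their inhibitors), 31 passed the filter on low values, 25 were called lower and 4 higher as deposited, and 12 lower and 14 higher after centring, beside 73.1% lower and 15.8% higher of all genes as deposited and 36.6% and 51.5% after centring. Their median log2 ratio was -1.42 as deposited and 0.01 after centring, where all genes tested had -1.13 and 0.29 and the 10 members -0.80 and 0.62. All 13 caspases, adaptors and inhibitors were called lower as deposited, with a median log2 ratio of -1.91, and after centring 8 were lower and 2 higher. The 4 genes with the smallest ratios were Bmf, a BH3-only gene that went from 11.7 and 10.8 TPM to 0.316 and 0.357 TPM (log2 ratio -4.70), Casp2 (-2.90), Bcl2l12 (-2.84) and the apoptosome caspase Casp9 (-2.77). These 4 stayed negative after centring. The 4 with the largest were Cycs, which encodes cytochrome c (0.62), the mitochondrial protease gene Htra2 (0.57), the effector-like gene Bok (0.37) and the pore gene Vdac1 (0.20), and these 4 stayed positive after centring. Apaf1, which scaffolds the apoptosome, went from 17.4 and 16.5 TPM to 2.34 and 2.76 TPM.

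Splicing was measured as percent spliced in (PSI), the length-corrected share of junction reads that include an exon or retain an intron. The tables analysed here list SE events for 5 of the 10 members, in all 20 distinct events over 15 exons, and none for Mcl1, Bcl2l1, Bcl2l2, Bad or Pmaip1. For the fibroblasts, 15 events were listed and 9 had at least 20 reads in each of the 4 libraries. An event was called at an adjusted p below 0.05 (quasi-binomial F test on the reads of both forms) and a PSI difference of at least 0.1. The family had 1 called event, lower after the drug, where 7.23% of the 54535 events tested were called, 7.12% lower and 0.106% higher. The PSI difference was negative in 7 of the 9 events, beside 40527 of all 54535 events tested. Its median was -0.04, beside -0.005 for all events tested.

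The called event was the exon of 211 bp of Bid at chr6:120900156-120900366 (mm10, minus strand), between exons that end the skipping junction at 120897359 and 120901723. It lies inside the gene (chr6:120893119-120917062), and its length is not a multiple of 3. No skipping read was seen among 1141 and 1229 reads after DMSO, where the exact 95% intervals reach up to 0.323% and 0.3%. After pladienolide B 3 of 69 reads (4.35%, exact 95% interval 0.906% to 12.2%) and 8 of 93 reads (8.60%, 3.79% to 16.2%) skipped it. These intervals cover counting error within a library only and leave out the spread between libraries. They treat reads as independent, which copies made by PCR would not be. PSI thus went from 1 in each control to 0.917 and 0.842, a difference of -0.12, adjusted p = 0.0117 in the quasi-binomial model with n = 2 per group. The call rests on the full set of 4 libraries: without any 1 of them no event of the table passed, for Bid with adjusted p between 0.146 and 0.546. In the same exon paired with a farther flank the PSI was 1 and 1 after DMSO and 0.885 and 1 after the drug, which did not pass the test, adjusted p = 0.105.

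Bak1 showed a smaller change with more reads behind it. Its exon of 144 bp (chr17:27022439-27022582, minus strand) was skipped by 0 of 3113 and 0 of 3106 reads after DMSO and by 8 of 526 and 16 of 601 reads after the drug. The PSI difference was -0.04, with adjusted p = 0.00892, which passed the test but not the limit of 0.1, as 14.5% of all events were lower and 0.264% higher at an adjusted p below 0.05. Without any 1 library its adjusted p was between 0.141 and 0.546. Of the exon of 20 bp known from neurons, 13 of 1084 and 20 of 1153 reads showed inclusion after DMSO, and 7 of 228 and 2 of 261 after the drug, a PSI of 0.007 to 0.027 with overlapping groups, adjusted p = 0.741. The most covered exon of Bax, of 105 bp (chr7:45463399-45463503), stayed nearly complete, with PSI of 0.998 and 0.999 after DMSO and 0.993 and 0.997 after the drug, adjusted p = 0.203.

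Bcl2l11 makes the isoforms BimEL, BimL and BimS, which differ by a segment that can be removed as an intron and by a cassette exon within the coding sequence. The most covered event was the exon of 395 bp (chr2:128128620-128129014, plus strand), with PSI of 0.991 and 0.984 after DMSO and 1 in both libraries after the drug, adjusted p = 0.523. Within that exon the segment of 168 nt (chr2:128128757-128128924) is listed as a retained intron, and it was the only retained intron (RI) event of any member. It was retained with a PSI of 0.773 and 0.727 after DMSO and 0.848 and 0.782 after pladienolide B. The groups did not overlap, but the difference of 0.06 passed neither limit, adjusted p = 0.398 in the quasi-binomial model, where 38% of 1802 retained introns were called, 35.1% higher and 2.89% lower, and at an adjusted p below 0.05 alone 47.9% were higher and 7.66% lower. The cassette exon of 90 bp (chr2:128128925-128129014), named after its values were seen, had a PSI of 0.942 and 0.835 after DMSO and of 0.484 and 0.929 after the drug. The drug-treated libraries rest on 25 and 22 reads and lie on either side of the lower control, and the difference of -0.18 did not pass the test, adjusted p = 0.326.

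**Figure D3:**
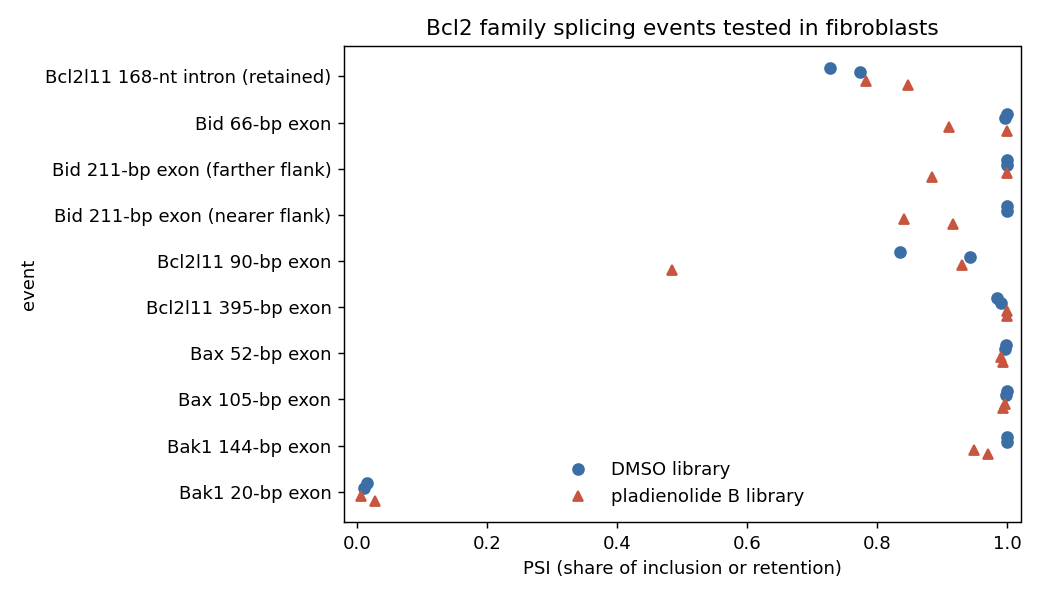
PSI of the 9 skipped exons and the 1 retained intron of the family that were tested in fibroblasts, with circles for DMSO libraries and triangles for pladienolide B libraries. Most exons sit near 1 in all libraries, the exon of 211 bp of Bid is lower in both drug-treated libraries (0.917 and 0.842), and the exon of 90 bp of Bcl2l11 is low in only 1 of them (0.484).

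Junction reads and TPM parted for Bbc3. The exon of 289 bp (chr7:16312126-16312414, plus strand), described after its values were seen, had 393 and 376 junction reads after DMSO, none of them skipping, and 16 and 56 after the drug, of which 5 and 8 skipped it. The junction reads of this event fell to 0.0974 of the control relative to all reads of the table, whereas the TPM of Bbc3, which counts reads over annotated exons with or without a junction, was 1.13 times the control. For Bid the exon of 211 bp kept 0.0734 of its junction reads and the gene 0.142 of its TPM, and for Bak1 the exon of 144 bp kept 0.196 and the gene 0.243. For Bax, the exon of 105 bp kept 1.05 times its junction reads at 1.34 times the TPM. With 16 reads in a library the exon of Bbc3 was below the minimum. At a minimum of 10 reads it was called, with PSI of 1 and 1 after DMSO and 0.524 and 0.750 after the drug, adjusted p = 0.0138.

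Among the other listed genes 141 SE events in 24 genes were tested, and 9 were called, all lower after pladienolide B, beside 7.12% of all events called lower. Birc2, which encodes the inhibitor cIAP1, had 3 called events, of which an exon of 42 bp went from a PSI of 1 in both controls to 0.301 and 0.340. Bcl2l13, a relative in the mitochondrial outer membrane, had 4, with differences from -0.25 to -0.41. Cflar, which encodes the caspase 8 inhibitor FLIP, had 1 (-0.20), and Apaf1 had 1 (-0.12). Of 5 retained introns in 3 of these genes, 2 overlapping events of Htra2 were called higher, beside 35.1% of all retained introns. The larger change went from 0.172 and 0.160 to 0.569 and 0.651.

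Across tissues the 10 members differed in level. All 10 members were called in the limma F test across the 7 tissues, where 99.7% of all genes tested were called, so the levels are described here. Tissue levels were not centred, and in liver Alb alone stood at 84064 to 103050 TPM. How many of all genes were lowest in liver was not counted. Mcl1 was highest in spleen, at 472.5 and 370.8 TPM, and lowest in liver, at 66.6 and 64.3 TPM. The libraries of spleen, ESC (441.3 and 257.7 TPM) and lung (259.0 and 270.4 TPM) overlapped along the order, and those of heart, kidney, cortex and liver followed without overlap. Bcl2l1 was highest in lung, at 67.0 and 70.0 TPM, with ESC, kidney and cortex overlapping in turn, then dropped to 19.6 and 22.1 TPM in spleen and to 13.2 and 13.3 TPM in liver. Bcl2l2 was highest in cortex, at 105.2 and 110.0 TPM, followed by lung (84.3 and 89.4), heart (40.4 and 41.4) and kidney (38.1 and 38.6) without overlap, while spleen and ESC overlapped and liver was lowest at 11.2 and 10.5 TPM. Cortex was the only tissue in which Bcl2l2 exceeded Mcl1, with Mcl1 at 0.642 and 0.617 times its TPM, against 2.62 to 23.9 times in the other 12 tissue libraries.

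How many of all genes were highest in ESC was not counted, so the levels that follow are a description. Among the 7 effector and BH3-only genes, Bax, Pmaip1, Bbc3 and Bid were highest in ESC with no overlap with another tissue. Bax reached 515.9 and 603.3 TPM there, ahead of spleen (190.3 and 158.4) and 16.6 times the mean of liver. Pmaip1 reached 156.0 and 263.9 TPM, against 19.3 and 20.7 in spleen and 0.348 and 0.444 in liver. Bbc3 stood at 50.6 and 27.8 TPM, and Bid at 48.8 and 53.5 TPM, both above all other tissues. The 2 ESC clones differed more than the replicates of most organs, as for Mcl1, Pmaip1 and Bbc3. Bak1 was similar in ESC (62.3 and 76.7 TPM) and spleen (64.0 and 68.1), and Bcl2l11 was highest in spleen at 20.2 and 20.3 TPM. Bid was lowest in heart, at 0.947 and 1.13 TPM, against 31.7 and 31.3 in kidney. Bad varied least, from 11.9 and 11.7 TPM in liver to 35.3 and 34.1 TPM in lung, a 2.94-fold range of means.

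**Figure D4:**
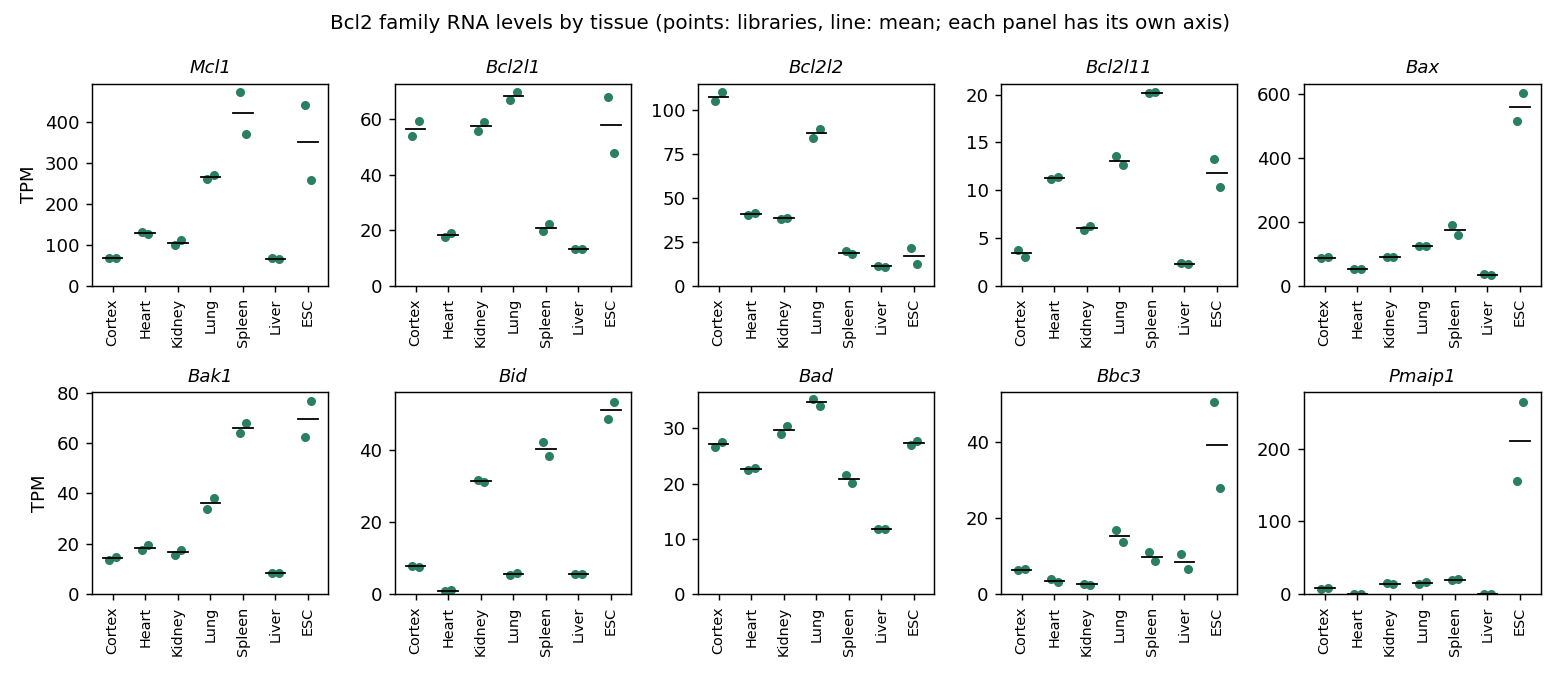
RNA levels of the 10 genes in 7 tissues, in TPM with an own linear axis from 0 for each gene, with points for the 2 libraries and lines for their mean. Bax, Bbc3, Bid and Pmaip1 are highest in ESC, Bcl2l2 in cortex, Mcl1 and Bcl2l11 in spleen, and liver is the lowest or next to lowest tissue for most of the 10 genes. The share of all genes lowest in liver was not counted.

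Over all 18 libraries the genes whose log2(TPM + 0.1) followed Mcl1 most closely were Vasp (Pearson r = 0.970), AU020206 (0.948) and Gltscr2 (0.946), out of 18907 genes. For Bcl2l1 they were A330021E22Rik (0.948), Iqck (0.929) and B9d1 (0.927). These values describe 18 libraries of which pairs share a tissue, and carry no test.

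Bak1 held the only member event called across tissues, 1 of 10 tested, beside 9.03% of 47963 events. Its micro-exon of 20 bp (chr17:27021663-27021682, minus strand) is known from neurons, where its inclusion gives the variant N-Bak. PSI was 0.597 and 0.501 in cortex, from 160 and 174 junction reads. In the other 12 libraries it lay between 0.008 and 0.034, from 191 to 1356 reads each, so that cortex stood entirely apart and the other tissues overlapped. The range of tissue means was 0.54, adjusted p = 1.66e-09 in the quasi-binomial model with n = 2 per tissue. Such a range or a larger one was reached by 2.51% of all events and by 24.9% of the 892 events with an exon of 30 bp or less. Heart (0.013 and 0.034) and kidney (0.013 and 0.016), which were sequenced with the same read length as cortex before trimming, were as low as the rest. An effect of read length on this PSI was not tested. Without cortex the range was 0.01, and no event of the family was called. In cortex the RNA of Bak1 was at 13.7 and 14.8 TPM, lower than in every tissue but liver.

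**Figure D5:**
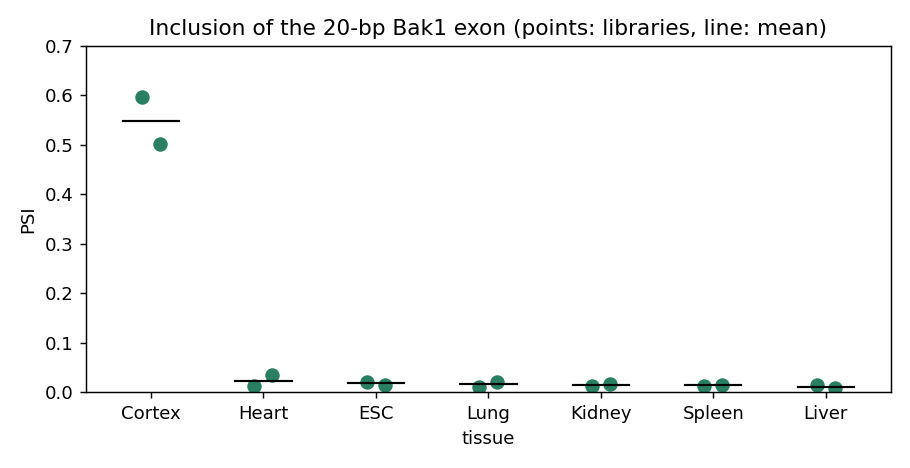
PSI of the micro-exon of 20 bp of Bak1 in 7 tissues, in the order of the means, with a point for each of the 2 libraries and a line for the mean. Cortex lies at 0.597 and 0.501, and all 12 other libraries lie at or below 0.034.

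The other events tested across tissues stayed near complete inclusion or near exclusion. The range of tissue means was 0.004 to 0.005 for the 2 tested exons of Bax, 0.12 for the exon of 90 bp of Bcl2l11 and 0.01 for the median of the 10 events, beside 0.01 for all events tested. For the exon of 90 bp PSI was between 0.905 and 0.987 in 13 of the 14 libraries and 0.731 in the second cortex library, which rests on 45 reads, adjusted p = 0.888. An upstream exon of 135 bp of Bid (chr6:120906429-120906563), named after its values were seen, was included in kidney with a PSI of 0.042 and 0.037, against 0.006 and 0 in lung and 0.001 and 0.006 in spleen. This passed the test, adjusted p = 0.0123, but not the limit of 0.1. With the replicate number as a block the adjusted p was 0.131, and without the first kidney or the first spleen library the adjusted p was 0.0641 and 0.0784.

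Between the alleles no splicing difference of a member was called. In the tissues 33 pairs of an event and a tissue were tested in 5 genes, none in liver, and 0 were called in the quasi-binomial model, with 1 at an unadjusted p below 0.05. Among all pairs tested 1.40% were called, with 1.90% in kidney and shares of 1.86% for heart, 1.83% for lung, 1.76% for cortex, 1.42% for spleen, 1.25% for liver and 0.216% for ESC. The absolute PSI difference of the members' pairs was at most 0.10, in the exon of 90 bp of Bcl2l11 in kidney, with PSI of 0.940 and 1 on the C57BL/6J allele and 0.830 and 0.913 on the SPRET/EiJ allele, adjusted p = 0.529. In fibroblasts 9 pairs were tested and 0 were called, none at an unadjusted p below 0.05, where 1.82% were called after DMSO and 1.84% after pladienolide B. The interaction of allele and treatment could be tested for 2 member events, the exon of 105 bp of Bax (adjusted p = 0.973) and the micro-exon of Bak1 (adjusted p = 1). Neither was called, nor at an unadjusted p below 0.05, while 0.0368% of 13585 events were called.

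The 2 alleles of Bid, by contrast, gave unequal shares of its assigned junction reads in kidney, among the tissues, and in fibroblasts. Of the junction reads at its exon of 211 bp that could be assigned to an allele, 92.5% (943 of 1019, exact 95% interval 90.8% to 94.1%) and 88.6% (1008 of 1138, 86.6% to 90.4%) came from C57BL/6J in kidney. At the same junctions the C57BL/6J share was 49.3% in each spleen library (621 of 1259 and 594 of 1205) and 42.9% and 50.1% in ESC. The kidney bias was also seen at the exon of 135 bp, with 93.9% and 90.5% in kidney against 51.9% and 56.2% in spleen and 65.0% and 43.8% in lung. A mean share as high as that of Bid in kidney was seen in 1.18% of the 8275 genes with 40 or more assigned reads in each kidney library. In fibroblasts the share was 60.7% and 67.9% after DMSO at the exon of 66 bp. After pladienolide B it was 87.3% (55 of 63) and 90% (81 of 90) at the exon of 211 bp. These are different junctions, and no listed event of Bid had 40 assigned reads per library in both conditions, so the conditions are not compared.

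Bcl2l11 leaned the other way in fibroblasts. After DMSO the C57BL/6J allele gave 26.9% and 24.7% of the assigned reads at the exon of 395 bp, a mean below that of 95.9% of the 8063 genes compared. In lung its share at the exon of 90 bp was 63.7% and 61.7%, and in heart 42.4% and 43.1%. In kidney the libraries lay on either side of 50% at that exon, with 60.2% and 44.1%. At its exon of 105 bp Bax was close to balance in the 5 tissues and both fibroblast conditions where it was counted, with shares from 44.9% to 51.6%. At its exon of 52 bp the share was 57.1% (of 63 reads) and 65.6% (of 64 reads) in kidney and 54.4% and 52.5% after pladienolide B. At its exon of 147 bp it was 51.6% and 52% in ESC. These shares are values with no test across animals. Assignment of reads to an allele depends on the variants that each junction read covers, and its part in these shares was not tested beyond the comparison of the same junctions in several tissues.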

How the data were processed

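The authors trimmed reads to 1 length, aligned them with HISAT2 2.0.1 (submitters' processing notes) to C57BL/6J (mm10) and SPRET/EiJ genomes, and assigned each read to the closer genome. Junction read counts from rMATS were deposited as pairs of replicates in 1 cell, with the effective form lengths, a score column of inclusion differences, and p-value and FDR columns of the authors' own comparisons, which were not used. The authors deposited TPM made from strand-specific featureCounts reads, in which reads on overlapping genes are split. Bak1 lies within Ggnbp1, and Bcl2l1, Bcl2l11, Bid and Bad also overlap other genes.

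Here PSI was recomputed for autosomal events with 20 or more reads in each library (per allele for alleles). Replicates were read from list positions. In the fibroblasts, allelic reads never exceeded total reads of the same position (100% of events). Inclusion was tested with a quasi-binomial F test, dispersions of at least 1 being moderated toward a depth trend (limma 3.58.1, R 4.3.3, Python 3.11.15, numpy 2.4.6). TPM was tested with limma on log2(TPM + 0.1), with a trend, over genes at a mean of 1 TPM or more. Gene positions come from RefSeq on GRCm38.p6, in which all 10 symbols matched. On simulated libraries with 200 changed features the fits recovered 56.5% for SE and 92.5% for RI under treatment (logit shift 1.5) and 72% for TPM (log2 shift 1), with 1.74%, 5.61% and 2.70% false calls. Across tissues recovery was 80.5% with 15.3% false calls for beta-binomial reads, and 95% with 5.47% when the variance followed the model. These tissue runs used 7913 events with enough reads in every tissue library. Changed splicing events were drawn from intermediate inclusion and scored by adjusted p alone, without the PSI limit. Most member events lay near full inclusion or near exclusion, so these shares do not describe recovery or false calls for them.

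Members, gene lists and tests were chosen with earlier results of these data known. Named were all members, called member events, the most covered SE and RI event of each member, and, of the other listed genes, the 4 largest and smallest TPM ratios and those with called events. Both alleles of a library come from the same animal or culture (correlations 0.065 to 0.300), and a replicate block for the library called 0 member events between alleles (0 at an unadjusted p below 0.05).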

Additional observations from a re-analysis of the deposited data

Results flagged for a closer look

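The listed allele shares were picked because, at the same event, both libraries of a group lay above 50% of assigned reads from C57BL/6J and both libraries of another group below. The differences between the groups were not tested. For the exon of 211 bp of Bid the mean share was 41.2 percentage points higher in kidney (90.6%) and 39.3 points higher after pladienolide B (88.7%) than in spleen (49.3%), whose intervals include 50%. For the exon of 66 bp of Bid it was 19.1 points higher in DMSO fibroblasts (64.3%) than in ESC (45.2%). For the exon of 90 bp of Bcl2l11 lung (62.7%) was 37 points above DMSO fibroblasts (25.7%), 20 above heart (42.7%), 21.6 above ESC (41.2%), 20.7 above cortex (42.0%) and 17 above spleen (45.8%). Every library's exact 95% interval excluded 50% for lung, heart and DMSO fibroblasts. In kidney the 2 libraries gave 60.2% and 44.1%. At the exon of 110 bp of Bcl2l11 the kidney libraries gave 61.3% (52.1% to 69.9%) and 38% (30.2% to 46.3%). Such intervals cover counting error only and not the spread between libraries.

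For the micro-exon of Bak1 heart (64.3%) was 18 points above ESC (46.3%) and 18 above the pladienolide B fibroblasts (46.4%). Spleen was 6.74 and 6.67 points above the same groups, DMSO fibroblasts 6.25 and 6.18 points, and lung 4.72 and 4.65 points. In ESC and after pladienolide B the intervals of both libraries included 50%.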

How the results depend on the processing

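Scale was the choice that mattered most for TPM. After centring on the median gene 4 members were called lower and 6 higher (7 and 1 as deposited), 12 and 14 of the other listed genes (25 and 4), and 4835 and 6811 of all genes (9664 and 2094). The log2 ratios of Mcl1 (0.79), Bcl2l1 (1.31), Bad (1.03) and Pmaip1 (0.46) reversed. With the spread shared over 18 libraries 1324 genes were called higher. Leaving out a fibroblast library gave 1 to 2 members called higher. No other alternative ended or turned a call of a member in TPM, the replicate block included.

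For SE under treatment 2 member events were called at a minimum of 10 reads and 2 with no minimum, Bid and Bbc3 in both. None was called at a limit of 0.2 (2232 of all events), and 0 with the replicate block, which left 2 member events at an unadjusted p below 0.05, and under which 0 of 54535 events passed (5356 at an unadjusted p below 0.05). Leaving out any library gave 0 to 0 member events (1 to 3 unadjusted) and 0 of all events, with 4405 to 9591 at an unadjusted p below 0.05. The adjusted p of Bid was 0.441 under the block. The numbers do not pair the libraries (correlation of replicate differences 0.00487 for PSI and -0.0159 for TPM). Limma on the empirical logit, added after the data were seen, called 1 member event and 4318 events.

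Across tissues, leaving out cortex (added after the data were seen) gave 0 member events and 2777 of all events (4330 with it), and the replicate block 2886, with 1 member event called and the exon of 135 bp of Bid no longer passing the test (adjusted p = 0.131). Between alleles the replicate block called 0 of 155316 pairs in tissues (4762 unadjusted) and 0 of 56074 in fibroblasts (1956). For the interaction, 5 of all events were called, 2 at 50 reads, 3 with 1 prior, 0 under the block (245 unadjusted) and 0 without any library (404 to 705). The causes were not tested. A planned fit with a count model was not run, since the deposited cells hold pairs of counts, and alleles without 1 library of a tissue leave no residual degrees of freedom. Events of members rest on as few as 20 reads, which limits what PSI differences could be detected after the drug.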
